A study of Mus musculus with 74 samples.

Results

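The mitochondrial genome of the mouse carries 37 genes, and all 37 were taken as members: 2 ribosomal RNAs, 13 messenger RNAs and 22 transfer RNAs. They were chosen by their transcript identifiers, with no measured value in the rule, out of 55943 identifiers counted in each library. Earlier results of these data were known when they were chosen. Reads were found for 16 of the 37, both rRNAs, all 13 mRNAs and 1 tRNA, mt-Tp. The other 21 tRNAs were listed at 0 in all 15 libraries.

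HPC-7 is a mouse blood progenitor cell line kept in stem cell factor (SCF), a growth factor. RNA sequencing was made of 15 libraries in 6 groups, and every group, controls included, carried an inducible short hairpin RNA that had been switched on with doxycycline for 72 h. The HPC groups, in SCF at 100 ng/ul, held 3 libraries with a hairpin against luciferase (HPC Luc, the control), 3 with one against Stag2, 3 with one against Rad21 and 2 with one against Smc1a. The Ery groups, 2 libraries with the Luc and 2 with the Stag2 hairpin, were then held for 48 h more in SCF at 20 ng/ul together with 4 U/l of erythropoietin (EPO), the growth factor of red cell precursors. The 3 targets are parts of cohesin, a ring-shaped protein complex that holds chromatin loops and sister chromatids together. The titles of HPC libraries, unlike those of Ery libraries, add the unexplained word inhibitor, so the stage and whatever it stands for cannot be told apart. EPO, the lower SCF and the 48 h more also came together and cannot be told apart. Changes said below to come with EPO are differences between Ery and HPC groups. Nothing in the labels tells if libraries of a group are separate cultures, so p-values measure the spread between libraries, which may be technical.

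Mitochondrial DNA is copied into long transcripts that run around nearly the whole circle from both strands. tRNAs lie between most of the rRNA and mRNA genes, and cutting them out frees the RNAs on either side. Most genes are read from one strand, and mt-Nd6 is the only mRNA read from the other. The rRNAs build the mitochondrial ribosome, and the mRNAs encode core subunits of the respiratory chain and of ATP synthase. Early erythroid cells need mitochondria for haem and iron handling, and lose them as they mature.

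Between 22288469 and 33355332 reads were assigned to an identifier in a library. Among the HPC libraries, those numbered 3 and both shSmc1a libraries stood apart from the other 6 on the second principal component, which held 31.0% of the variance and ran from 5.76 to 9.82 in these 5 and from -8.83 to -2.06 in the others. The labels name nothing that separates them. Changes of single members are therefore also given from a fit with the set as a term, which takes the difference between sets to be equal in all groups. The Ery libraries were not part of this component, and that fit counted them with the other 6 HPC libraries. No label gives that placing, and the EPO values with the set as a term rest on it. No pair of replicate libraries was alike within counting noise (chi-square per degree of freedom 2.21 to 38.8). Reads in no annotated feature made up 15.1 to 18.0% of all reads in HPC libraries and 9.19 to 9.50% in Ery libraries, and its part in the differences between stages was not tested. Identity of the knocked-down cells and of the erythroid stage was not checked here, because no source used here pairs the other identifiers with gene symbols.

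Mitochondrial transcripts took between 29.7 and 38.9% of the assigned reads. The share was 36.6, 35.9 and 38.9% in HPC Luc, 29.7, 31.2 and 38.1% in HPC shStag2, 31.6, 33.3 and 38.4% in HPC shRad21, and 37.3 and 36.4% in HPC shSmc1a. Ery Luc libraries had 34.1 and 34.4% and Ery shStag2 libraries 33.1 and 32.8%. The 4 lowest libraries of HPC were those numbered 1 and 2 with the Stag2 or the Rad21 hairpin, while their libraries numbered 3 lay within the range of HPC Luc.

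Mean shares were 33.0% ± 4.47 (SD, n = 3) in HPC shStag2 and 37.1% ± 1.55 (SD, n = 3) in HPC Luc, a difference of -4.15 percentage points (exact permutation test, two-sided p = 0.3). For HPC shRad21 the mean was 34.4% ± 3.52 (SD, n = 3) and the difference -2.71 points (exact p = 0.3), and for HPC shSmc1a 36.9% ± 0.643 (SD, n = 2) and -0.26 points (exact p = 0.9). With 3 libraries against 3 or 2, an exact permutation test cannot go below p = 0.1. Within the set of libraries numbered 3 and shSmc1a, HPC Luc 3 had the highest share, and within the other 6 both HPC Luc libraries were above all 4 knockdown libraries. With the set as stratum, the 8 knockdown libraries lay 3.07 points below HPC Luc, a value that no other of the 75 arrangements within strata reached (exact p = 0.0133), with an adjusted p of 0.05 over 30 tests of shares and ratios. That value is at the threshold and not under it. The sets were read from the expression of these same libraries and not from labels, and both p-values rest on that grouping. Without regard to the sets the difference was -2.64 points (exact p = 0.285, adjusted p = 0.61). In bulk RNA, fewer cells of a type rich in mitochondrial RNA and less such RNA per cell cannot be told apart.

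Ery Luc had a mean share of 34.2% ± 0.193 (SD, n = 2), below all HPC Luc libraries by 2.92 points on average (exact p = 0.2). Ery shStag2 had 33.0% ± 0.25 (SD, n = 2) and differed from HPC shStag2 by -0.022 points (exact p = 1), with its libraries inside the HPC range. Both Ery shStag2 libraries were below both Ery Luc libraries, by 1.25 points on average (exact p = 0.333, the smallest that 2 against 2 allow). Set against all counted reads, ambiguous and unannotated ones included, Ery Luc and HPC Luc had 21.9% ± 0.146 (SD, n = 2) and 22.0% ± 1.41 (SD, n = 3), and the gap shrank to -0.11 points (exact p = 1).

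**Figure D1:**
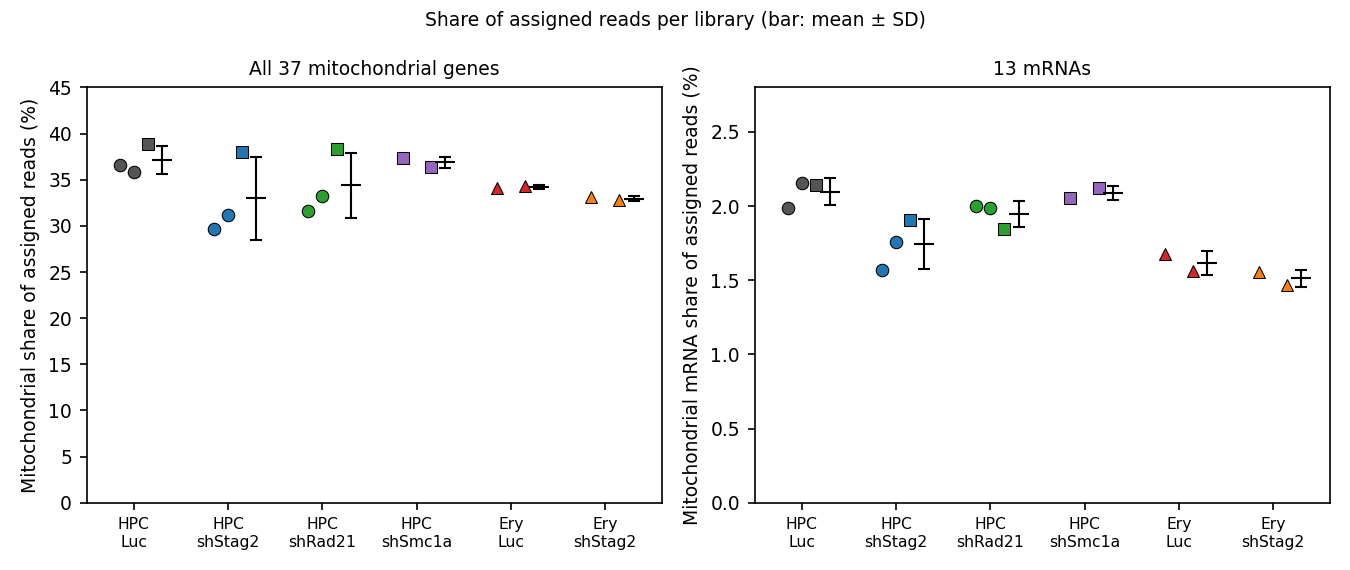
Percentage of assigned reads in all 37 mitochondrial genes (left) and in the 13 mRNAs (right), 1 point per library, with mean ± SD beside each group; squares are the 5 HPC libraries that stood apart (numbers 3, and shSmc1a), circles the other HPC libraries and triangles the Ery libraries. On the left the shStag2 and shRad21 circles lie between 29.7 and 33.3% and their squares at 38.1 and 38.4%; on the right the 4 Ery libraries, at 1.47 to 1.67%, overlap only with the lowest HPC shStag2 library.

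Ribosomal RNA made up nearly all of these reads. mt-Rnr2 alone, the rRNA of the large ribosomal subunit (MT 1094 to 2675), held 25.8 to 33.6% of all assigned reads, more than any other identifier, and mt-Rnr1, the rRNA of the small subunit (MT 70 to 1024), held 1.53 to 3.40%. Together they held 93.7 to 95.5% of mitochondrial reads. The 13 mRNAs held 1.47 to 2.15% of assigned reads, and mt-Tp 0.00589 to 0.0109% of mitochondrial reads. Whether ribosomal RNA was depleted or polyadenylated RNA selected is not stated in any source used here, and these are shares of the libraries and not of the cells' RNA.

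Per length, as RPKM on assigned reads (reads per kb, scaled to library size), the order in HPC Luc ran from mt-Rnr2 at 200802 ± 10242 (SD, n = 3) over mt-Rnr1 at 34233 ± 1322 to mt-Co1 at 6222 ± 280.0, the highest mRNA. mt-Nd1 followed at 3155 ± 164, mt-Nd2 at 2583 ± 308 and mt-Cytb at 1866 ± 76.7. None of these neighbours overlapped in their 3 libraries. mt-Nd5, at 1018 ± 61.2, and mt-Nd6, at 1004 ± 105, overlapped, although mt-Nd6 comes from the other strand. mt-Nd4 stood at 719 ± 51.4, followed by mt-Tp at 365 ± 28.0, and mt-Co3, at 77.4 ± 17.5, came only after these. The lowest values were those of mt-Co2 at 55.8 ± 12.6, mt-Atp6 at 44.1 ± 10.8, mt-Nd3 at 36.7 ± 10.4, mt-Atp8 at 32.1 ± 11.8 and mt-Nd4l at 12.9 ± 5.39, and from mt-Co3 down each overlapped with the next.

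**Figure D2:**
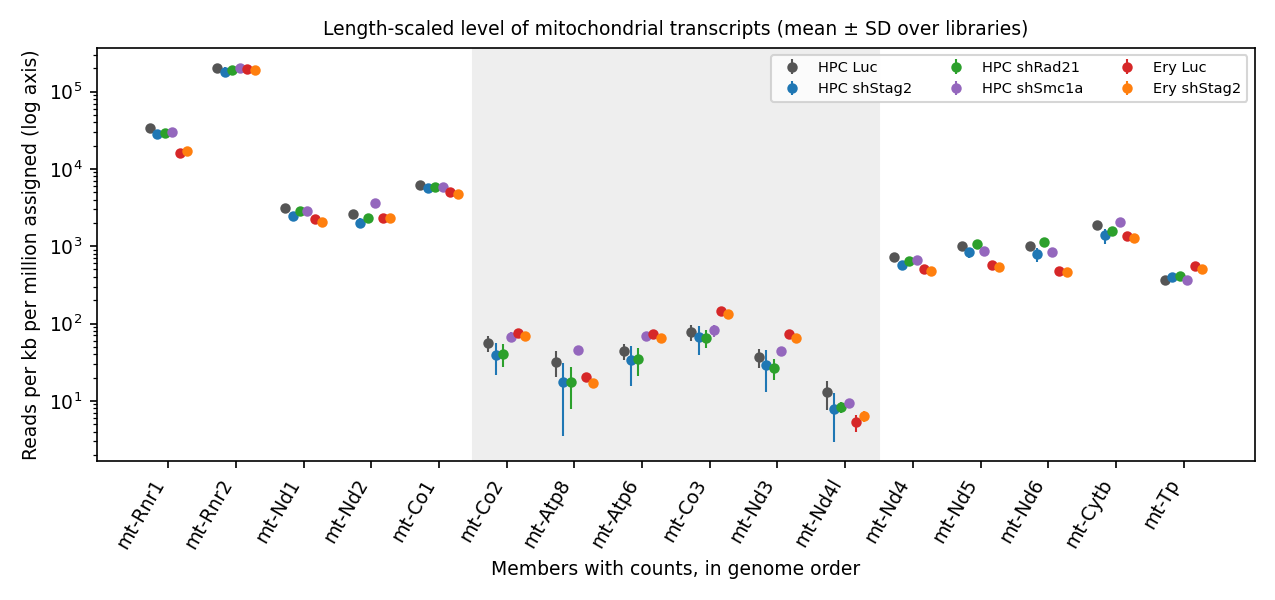
RPKM on assigned reads (log axis) for the 16 members with counts, in genome order, as mean ± SD over the libraries of each group (n = 3 or 2). The grey band marks the 6 neighbouring genes mt-Co2 to mt-Nd4l, which stood at 12.9 to 77.4 in HPC Luc between mt-Co1 at 6222 and mt-Nd4 at 719.

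The 6 low mRNAs are neighbours. They fill the stretch from mt-Co2 to mt-Nd4l (MT 7013 to 10173), while mt-Co1 just before it was 33.4 to 116 times as high per length as mt-Co3 and 66.3 to 203 times as high as mt-Co2 in the same library. In mt-Nd4l the gap reached 320 to 1145 times. RefSeq places a pseudogene named Gm10925, with mt-Atp6 among its synonyms, at 1:24613971-24614651 in the same genome build, and Gm10222 beside it at 1:24612404-24612700. They are 681 and 297 bp long, as mt-Atp6 and mt-Nd4l are. How reads that align equally well in both places were handled is not given in the sources used here, and the part of such reads in the low values was not tested. Reads without a unique alignment were listed at 0 in every library, which does not tell if they were removed before counting. The annotations of mt-Atp8 and mt-Atp6, of mt-Nd4l and mt-Nd4, and of mt-Nd5 and mt-Nd6 overlap, and 24.2 to 26.9% of all reads were set aside as ambiguous. Values of the 6 genes from mt-Co2 to mt-Nd4l are therefore uncertain.

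Their reads relative to mt-Co1 also followed the library sets. The log2 ratio of the 6 genes together to mt-Co1 was -5.73 to -5.50 in the HPC libraries numbered 3 and shSmc1a, -6.67 to -5.85 in the other 6 HPC libraries, and -5.03 to -4.97 in the Ery libraries. All HPC libraries were below the Ery range in this ratio.

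With the Stag2 hairpin in progenitors, 4 mRNAs of complexes I, III and IV fell. edgeR's quasi-likelihood test with Benjamini-Hochberg adjustment over 18065 identifiers called 4 of the 16 tested members lower and none higher, where 3.16% of all identifiers were called in either direction. The 4 were mt-Nd1, mt-Nd4, mt-Co1 and mt-Cytb, which were 1.4-fold, 1.35-fold, 1.2-fold and 1.44-fold lower. DESeq2 called 5, all lower, with 3 in common. The median log2 change of the 16 members was -0.45, and that of all identifiers 0.00. Within libraries numbered 1 and 2 alone, 15 of 16 passed, all lower, and with the library set as a term 14 did, all lower. Here and below, shares of all identifiers called are given for the main edgeR fit only, so counts from other fits have no background beside them. Between the libraries numbered 3, which have no replicate, 13 of the 15 rRNAs and mRNAs were below HPC Luc 3, with a median log2 ratio of -0.14. How many of all identifiers were below HPC Luc 3 was not counted. The number of calls rests on the replicates. It was 15 without HPC shStag2 3 and 2 without HPC Luc 1. Without any one of HPC Luc 2, HPC Luc 3, HPC shStag2 1 or HPC shStag2 2 it was 1, mt-Nd1.

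No member passed with the Rad21 hairpin, where 7.85% of all identifiers were called. At an unadjusted p under 0.05 there were 6, and DESeq2 called 0. The median log2 change of the 16 members was -0.28. Within libraries numbered 1 and 2 alone 12 members were called lower and 1, mt-Nd6, higher, and with the library set as a term 12 were lower and 0 higher. In the single pair of libraries numbered 3 all 15 rRNAs and mRNAs were below HPC Luc 3, with a median log2 ratio of -0.24. The number of all identifiers below HPC Luc 3 was not counted. Without HPC shRad21 3 the count in the fit of all other libraries was 3.

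For the Smc1a hairpin the test also called 0 of 16 members, against 4.33% of all identifiers, with 2 at an unadjusted p under 0.05 and 0 by DESeq2. The median log2 change was -0.03. Both shSmc1a libraries belong to the set with HPC Luc 3, and with the set as a term 6 members were lower: both rRNAs, mt-Co1, mt-Co3, mt-Nd5 and mt-Nd6. As no shSmc1a library is in the other set, these 6 calls rest on a set difference taken from the other hairpins. For mt-Rnr1 that fit gave -0.40, while the direct log2 ratios to HPC Luc 3 were -0.28 in shSmc1a 1 and -0.12 in shSmc1a 2. For mt-Nd6 it gave -0.48, and the direct ratios were -0.49 and -0.52. Against HPC Luc 3 alone, 12 of the 15 rRNAs and mRNAs were below it in shSmc1a 1 and 10 in shSmc1a 2, with median log2 ratios of -0.22 and -0.12. Here too the number of all identifiers below HPC Luc 3 was not counted. All 3 hairpin comparisons share the HPC Luc libraries, so their values are set side by side and are not independent of each other.

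With EPO some members fell and others rose, and most of the rises were in genes of the uncertain stretch. In Ery Luc against HPC Luc 6 of 16 members were called lower and 3 higher, where 39.3% of all identifiers were called. In Ery shStag2 against HPC shStag2 3 were lower and 6 higher, where the background was 39.7%. mt-Rnr1, mt-Nd5 and mt-Nd6 fell and mt-Co3, mt-Nd3 and mt-Tp rose with both hairpins. Of these, mt-Co3 and mt-Nd3 lie in the uncertain stretch. Over the 10 members outside it, 5 were lower and 1, mt-Tp, higher with the Luc hairpin, and 3 were lower and 2, mt-Nd2 and mt-Tp, higher with the Stag2 hairpin. mt-Rnr2 passed in neither. The median log2 change of the 16 members was -0.26 with the Luc and 0.16 with the Stag2 hairpin. With only the HPC libraries numbered 1 and 2, a choice made after seeing the data, the counts were 8 lower and 6 higher with the Luc hairpin and 3 lower and 9 higher with the Stag2 hairpin, the 9 calls of each comparison among them. Leaving out Ery Luc 2 left 5 calls in the first comparison, and leaving out Ery shStag2 2 left 5 in the second.

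**Figure D3:**
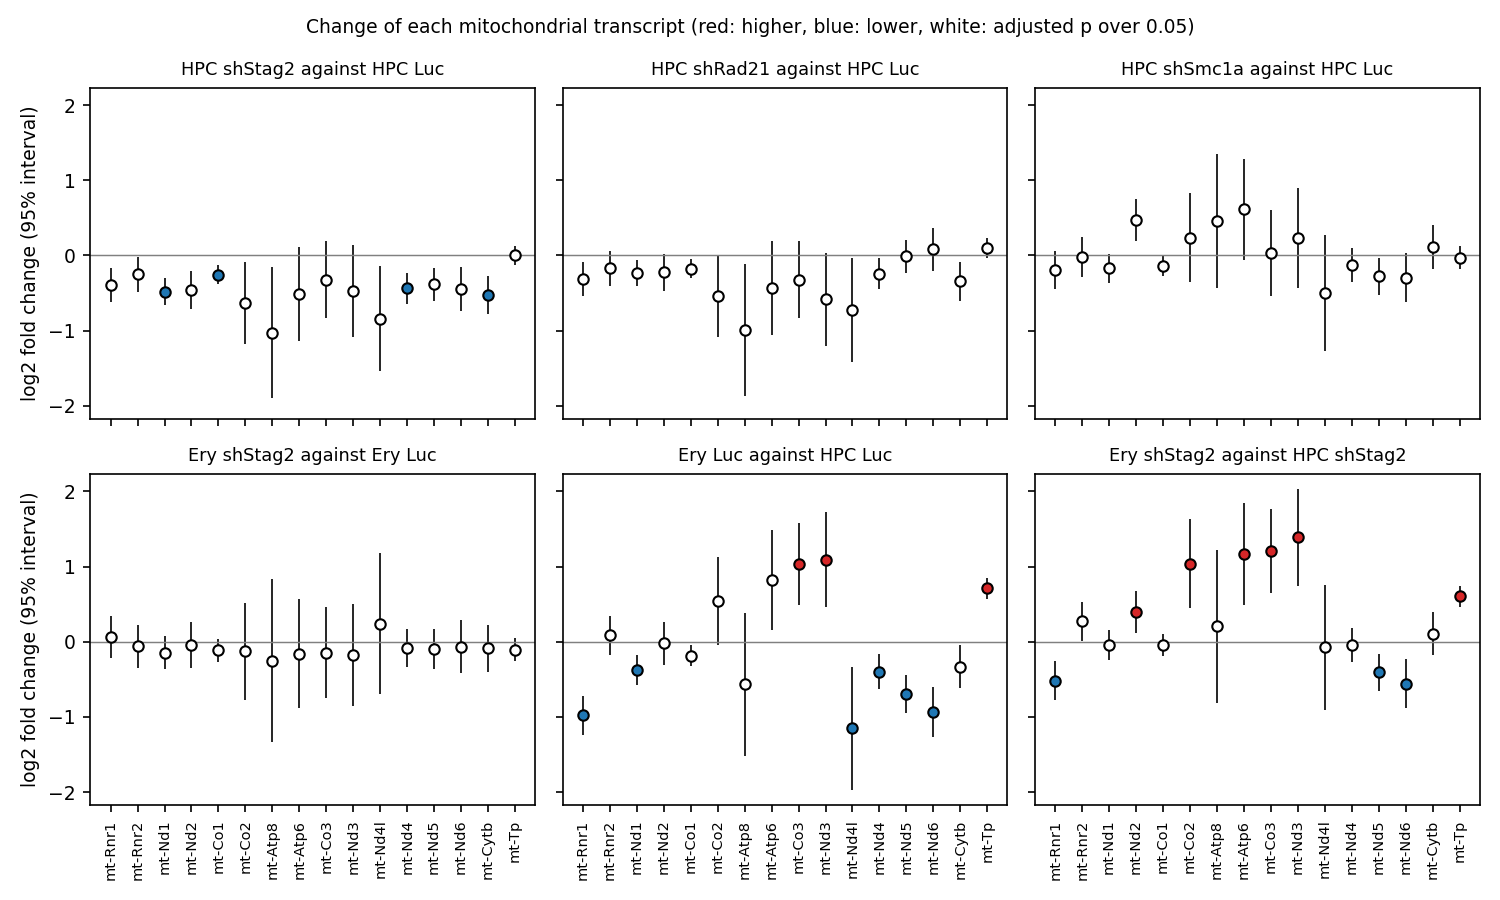
log2 fold change with 95% interval for each of the 16 members with counts in genome order, in 6 comparisons by edgeR's quasi-likelihood test; red and blue points passed an adjusted p of 0.05 as higher and lower, white points did not. In HPC shStag2 the blue points are mt-Nd1, mt-Co1, mt-Nd4 and mt-Cytb; in both EPO panels mt-Rnr1, mt-Nd5 and mt-Nd6 are blue and mt-Tp red, as are mt-Co3 and mt-Nd3 of the uncertain stretch.

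The following values are CPM after scaling by the trimmed mean of M-values, here scaled CPM, and fold changes are from the edgeR fit. Among the rRNAs, the small-subunit RNA fell with EPO and the large-subunit RNA did not pass. mt-Rnr1 stood at 34183, 31720 and 32904 scaled CPM in HPC Luc, 20336, 24036 and 30865 in HPC shStag2, 22815, 25138 and 31652 in HPC shRad21 and 27046 and 30374 in HPC shSmc1a. The Ery Luc libraries held 16722 and 16766 and the Ery shStag2 libraries 17971 and 17068. All 4 Ery libraries were below all 11 HPC libraries. In Ery Luc mt-Rnr1 was 1.97-fold lower than in HPC Luc, a log2 change of -0.98 (SE 0.13, adjusted p = 1.75e-05), and with the Stag2 hairpin the change was -0.52 (SE 0.13, adjusted p = 0.00432). Within the HPC libraries numbered 1 and 2 these were -0.98 and -0.35. Without Ery shStag2 2 the second did not pass (log2 change -0.48, adjusted p = 0.0534), and without HPC shStag2 3 it was -0.34. Every knockdown library of HPC was below the lowest HPC Luc library, and 0 of the 3 hairpin comparisons passed: the log2 change was -0.39 (SE 0.12, adjusted p = 0.0777) for shStag2, -0.31 (SE 0.12, adjusted p = 0.114) for shRad21 and -0.20 (SE 0.13, adjusted p = 0.495) for shSmc1a. With the set as a term all 3 passed. The set as a term gave -0.42 (adjusted p = 9.77e-05) for shStag2, -0.33 (adjusted p = 8.08e-04) for shRad21 and -0.40 (adjusted p = 0.00355) for shSmc1a in HPC. Its EPO values were -0.88 (adjusted p = 6.75e-10) in Luc cells and -0.40 (adjusted p = 1.16e-04) in Stag2-hairpin cells.

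mt-Rnr2 was counted at 314331, 296192 and 351194 scaled CPM in HPC Luc, 226868, 239112 and 342075 in HPC shStag2, 248983, 264733 and 341005 in HPC shRad21 and 322306 and 308559 in HPC shSmc1a. After EPO the values were 337789 and 341648 under the Luc and 325528 and 324989 under the Stag2 hairpin. The libraries numbered 3 were the highest of their groups, and the groups overlapped in all comparisons except Ery shStag2 against Ery Luc. Its log2 change was -0.25 (SE 0.12, adjusted p = 0.38) in HPC shStag2, -0.17 (SE 0.12, adjusted p = 0.468) in HPC shRad21 and -0.02 (SE 0.13, adjusted p = 0.964) in HPC shSmc1a. With EPO it was 0.08 (SE 0.13, adjusted p = 0.654) with the Luc hairpin and 0.27 (SE 0.13, adjusted p = 0.115) with the Stag2 hairpin. Within the HPC libraries numbered 1 and 2 the values for shStag2 and shRad21 were -0.38 and -0.24, and those for EPO 0.15 with the Luc and 0.48 with the Stag2 hairpin, all past the threshold. Taking the set into the fit, the HPC values were -0.27 (adjusted p = 4.40e-05) with shStag2, -0.18 (adjusted p = 0.00235) with shRad21 and -0.28 (adjusted p = 9.44e-04) with shSmc1a. The same fit put the EPO change at 0.21 (adjusted p = 4.88e-04) under Luc and 0.42 (adjusted p = 4.36e-08) under Stag2. Without scaling beyond the total of assigned reads the EPO value in Luc cells was -0.03, the opposite sign.

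Complex I, the NADH dehydrogenase at the entry of the respiratory chain, takes 7 of the 13 mRNAs. mt-Nd1 stood at 2858, 2991 and 3283 scaled CPM in HPC Luc, 1779.7, 2229 and 2526 in HPC shStag2, 2672, 2649 and 2435 in HPC shRad21 and 2714 and 2688 in HPC shSmc1a. Ery Luc had 2494 and 2190.5 and Ery shStag2 2164 and 2069. mt-Nd1, which encodes a membrane subunit near the quinone site (MT 2751 to 3707), was lower in every knockdown library than in any HPC Luc library. Its log2 change was -0.48 (SE 0.0901, adjusted p = 0.00434) in HPC shStag2, the call that held under every alternative run here. In HPC shRad21 it was -0.24 (SE 0.0899, adjusted p = 0.129) and in HPC shSmc1a -0.17 (SE 0.10, adjusted p = 0.432). With EPO mt-Nd1 changed by -0.38 (SE 0.10, adjusted p = 0.00659) in Luc cells, and without Ery Luc 2 that call was lost (log2 change -0.29, adjusted p = 0.113). In Stag2-hairpin cells the change was -0.04 (SE 0.10, adjusted p = 0.772). With the library set as a term the hairpin values were -0.49 (adjusted p = 1.78e-05) for shStag2, -0.23 (adjusted p = 0.0209) for shRad21 and -0.26 (adjusted p = 0.0876) for shSmc1a. For EPO that fit gave -0.33 (adjusted p = 0.00115) with the Luc and 0.01 (adjusted p = 0.955) with the Stag2 hairpin.

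mt-Nd2 stood at 2408, 2551 and 3165 scaled CPM in HPC Luc, 1548, 1917 and 2423 in HPC shStag2, 2061, 2151 and 2733 in HPC shRad21 and 3717 and 3781 in HPC shSmc1a. Among the Ery libraries, those with the Luc hairpin held 2799 and 2531 and those with the Stag2 hairpin 2649 and 2527. The shSmc1a libraries were the highest of all, and the shStag2 libraries numbered 1 and 2 the lowest. For this proton-pumping subunit (MT 3914 to 4951) the log2 change was 0.47 (SE 0.14, adjusted p = 0.0719) in HPC shSmc1a and -0.46 (SE 0.13, adjusted p = 0.0584) in HPC shStag2, neither past the threshold. The change with EPO was -0.02 (SE 0.14, adjusted p = 0.916) with the Luc hairpin and 0.40 (SE 0.14, adjusted p = 0.0332) with the Stag2 hairpin. The latter did not pass with DESeq2, without further scaling, or without Ery shStag2 1, Ery shStag2 2, HPC shStag2 1 or HPC shStag2 2 (log2 change 0.19 to 0.44, highest adjusted p = 0.193). In HPC shRad21 the value was -0.23 (SE 0.13, adjusted p = 0.343). Against HPC Luc 3, the control of their set, shSmc1a 1 and 2 stood at log2 ratios of 0.23 and 0.26. The set as a term gave -0.47 (adjusted p = 4.59e-07) for shStag2, -0.23 (adjusted p = 0.00276) for shRad21 and 0.21 (adjusted p = 0.0628) for shSmc1a in HPC. Its EPO values were 0.12 (adjusted p = 0.0996) in Luc cells and 0.55 (adjusted p = 2.73e-08) in Stag2-hairpin cells.

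mt-Nd4 was counted at 935, 1038 and 1018 scaled CPM in HPC Luc, 583, 734 and 899 in HPC shStag2, 835, 874 and 815 in HPC shRad21 and 834 and 992 in HPC shSmc1a. With EPO it stood at 789.6 and 724 with the Luc hairpin and 739 and 693 with the Stag2 hairpin. All shStag2 and shRad21 libraries of HPC were below all HPC Luc libraries for mt-Nd4, another proton-pumping subunit (MT 10167 to 11544). The log2 change was -0.43 (SE 0.11, adjusted p = 0.0266) in HPC shStag2, -0.25 (SE 0.10, adjusted p = 0.182) in HPC shRad21 and -0.13 (SE 0.12, adjusted p = 0.667) in HPC shSmc1a. The shStag2 call was lost without further scaling, in a fit of only the libraries compared, and without HPC Luc 2, HPC Luc 3, HPC shStag2 1 or HPC shStag2 2 (log2 change -0.43 to -0.29, highest adjusted p = 0.125). With EPO it fell in Luc cells by 0.40 on the log2 scale (SE 0.12, adjusted p = 0.0127), and without Ery Luc 2 it did not pass (log2 change -0.33, adjusted p = 0.123). In Stag2-hairpin cells the EPO change was -0.04 (SE 0.12, adjusted p = 0.795). Taking the set into the fit, the HPC values were -0.44 (adjusted p = 5.23e-04) with shStag2, -0.24 (adjusted p = 0.0418) with shRad21 and -0.23 (adjusted p = 0.25) with shSmc1a. The same fit put the EPO change at -0.35 (adjusted p = 0.00337) under Luc and 0.01 (adjusted p = 0.918) under Stag2.

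mt-Nd5 stood at 1741, 1846 and 2032 scaled CPM in HPC Luc, 1167, 1316 and 1820.1 in HPC shStag2, 1986, 1869.8 and 1721 in HPC shRad21 and 1517 and 1579.9 in HPC shSmc1a. The Ery Luc libraries held 1205 and 1107 and the Ery shStag2 libraries 1153 and 1009. The 4 Ery libraries were below all HPC libraries except that HPC shStag2 1 lay between them. mt-Nd5, the largest mitochondrially encoded subunit of complex I (MT 11742 to 13565), was 1.62-fold lower with EPO in Luc cells, a log2 change of -0.70 (SE 0.13, adjusted p = 3.33e-04). With the Stag2 hairpin the change was -0.41 (SE 0.13, adjusted p = 0.016), and it did not pass without HPC shStag2 3 or Ery shStag2 2 (log2 change -0.31 to -0.20, highest adjusted p = 0.175). Among hairpins in HPC the change was -0.39 (SE 0.11, adjusted p = 0.0764) for shStag2, -0.01 (SE 0.11, adjusted p = 0.974) for shRad21 and -0.27 (SE 0.13, adjusted p = 0.278) for shSmc1a. With the library set as a term the hairpin values were -0.40 (adjusted p = 0.00192) for shStag2, -0.00 (adjusted p = 0.999) for shRad21 and -0.40 (adjusted p = 0.0165) for shSmc1a. For EPO that fit gave -0.63 (adjusted p = 5.48e-06) with the Luc and -0.33 (adjusted p = 0.00649) with the Stag2 hairpin. With HPC libraries numbered 1 and 2 only, the EPO change with the Stag2 hairpin was -0.21 (adjusted p = 2.96e-04), and that of shRad21 0.11, above 0.

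mt-Nd6 was counted at 486, 482 and 610.4 scaled CPM in HPC Luc, 297, 339 and 524 in HPC shStag2, 595, 575 and 501 in HPC shRad21 and 434 and 425 in HPC shSmc1a. After EPO the values were 294 and 256 under the Luc and 283 and 242 under the Stag2 hairpin. mt-Nd6, the light-strand mRNA (MT 13552 to 14070), was lower in all 4 Ery libraries than in any HPC library, and HPC shStag2 1 and 2 were the lowest HPC libraries. With EPO it changed by -0.94 (SE 0.17, adjusted p = 2.79e-04) in Luc cells, which is 1.91-fold lower, and by -0.56 (SE 0.17, adjusted p = 0.0128) in Stag2-hairpin cells. The second call was lost without HPC shStag2 3 or Ery shStag2 2 (log2 change -0.45 to -0.28, highest adjusted p = 0.143). The hairpin changes in HPC were -0.45 (SE 0.15, adjusted p = 0.132) for shStag2, 0.08 (SE 0.15, adjusted p = 0.821) for shRad21 and -0.29 (SE 0.16, adjusted p = 0.407) for shSmc1a. Within libraries numbered 1 and 2 the shRad21 change was 0.28 (SE 0.0546, adjusted p = 1.94e-04), while that of shStag2 was -0.60 (SE 0.055, adjusted p = 3.78e-11), and the EPO change with the Stag2 hairpin was -0.28 (adjusted p = 3.64e-05). The set as a term gave -0.46 (adjusted p = 0.00414) for shStag2, 0.11 (adjusted p = 0.575) for shRad21 and -0.48 (adjusted p = 0.0253) for shSmc1a in HPC. Its EPO values were -0.83 (adjusted p = 3.24e-06) in Luc cells and -0.43 (adjusted p = 0.00479) in Stag2-hairpin cells. As strandedness of the counting is not given, mt-Nd6 counts may include reads of the other strand.

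mt-Nd3 stood at 12.6, 9.03 and 17.3 scaled CPM in HPC Luc, 5.8, 6.34 and 17.0 in HPC shStag2, 8.04, 6.23 and 12.4 in HPC shRad21 and 14.9 and 15.8 in HPC shSmc1a. Ery Luc had 27.5 and 28.3 and Ery shStag2 24.9 and 24.6. mt-Nd3, a small membrane subunit inside the uncertain stretch (MT 9459 to 9806), was higher in every Ery library than in any HPC library. It rose 2.13-fold with EPO in Luc cells, a log2 change of 1.09 (SE 0.32, adjusted p = 0.0119), and 2.62-fold in Stag2-hairpin cells, 1.39 (SE 0.33, adjusted p = 0.00275). The Luc call was lost with DESeq2 (adjusted p = 0.0518) and without HPC Luc 2, Ery Luc 1 or Ery Luc 2 (highest adjusted p = 0.0603), with log2 change 0.89 to 1.11. Without the set, the hairpin changes in HPC were -0.47 (SE 0.31, adjusted p = 0.591) for shStag2, -0.58 (SE 0.31, adjusted p = 0.314) for shRad21 and 0.23 (SE 0.34, adjusted p = 0.817) for shSmc1a. Taking the set into the fit, the HPC values were -0.50 (adjusted p = 0.0161) with shStag2, -0.55 (adjusted p = 0.00487) with shRad21 and -0.36 (adjusted p = 0.227) with shSmc1a. The same fit put the EPO change at 1.49 (adjusted p = 1.82e-09) under Luc and 1.82 (adjusted p = 8.91e-11) under Stag2.

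mt-Nd4l was counted at 5.64, 2.43 and 3.54 scaled CPM in HPC Luc, 1.24, 1.39 and 4.13 in HPC shStag2, 2.42, 1.86 and 2.84 in HPC shRad21 and 2.62 and 2.84 in HPC shSmc1a. Among the Ery libraries, those with the Luc hairpin held 2.03 and 1.4 and those with the Stag2 hairpin 1.8 and 2.27. This small subunit (MT 9877 to 10173) also lies in the uncertain stretch. It had 35 to 128 reads a library, the fewest of all with mt-Atp8, and its lowest values were in HPC shStag2 1 and 2 and in Ery Luc 2. With EPO it changed by -1.15 (SE 0.42, adjusted p = 0.0357) in Luc cells, and the value was -0.07 (SE 0.42, adjusted p = 0.913) in Stag2-hairpin cells. Without HPC Luc 1, the highest library, Ery Luc 1 or Ery Luc 2 the Luc call was lost (log2 change -1.45 to -0.80, highest adjusted p = 0.211), as with DESeq2 (adjusted p = 0.0739). Without the set, the hairpin changes in HPC were -0.84 (SE 0.36, adjusted p = 0.288) for shStag2, -0.72 (SE 0.35, adjusted p = 0.256) for shRad21 and -0.50 (SE 0.40, adjusted p = 0.599) for shSmc1a. With the library set as a term the hairpin values were -0.90 (adjusted p = 0.054) for shStag2, -0.72 (adjusted p = 0.0927) for shRad21 and -0.89 (adjusted p = 0.172) for shSmc1a. For EPO that fit gave -0.95 (adjusted p = 0.0264) with the Luc and 0.19 (adjusted p = 0.698) with the Stag2 hairpin.

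Complex III has 1 mitochondrial mRNA, mt-Cytb, for haem-bearing cytochrome b (MT 14145 to 15288). mt-Cytb stood at 2049, 2099 and 2308 scaled CPM in HPC Luc, 1093, 1394 and 1999 in HPC shStag2, 1669, 1655 and 1761 in HPC shRad21 and 2293 and 2359 in HPC shSmc1a. With EPO it stood at 1817 and 1606 with the Luc hairpin and 1641 and 1582 with the Stag2 hairpin. All shStag2 and shRad21 libraries of HPC were below HPC Luc, and the shSmc1a libraries were not. The log2 change in HPC shStag2 was -0.53 (SE 0.13, adjusted p = 0.0335), the largest of the 4 calls. It was lost with DESeq2, in a fit of only the libraries compared, and without HPC Luc 1, HPC Luc 2, HPC Luc 3, HPC shStag2 1 or HPC shStag2 2 (log2 change -0.56 to -0.34, highest adjusted p = 0.166). In HPC shRad21 the change was -0.34 (SE 0.13, adjusted p = 0.129) and in HPC shSmc1a 0.11 (SE 0.15, adjusted p = 0.788). With EPO the change was -0.33 (SE 0.15, adjusted p = 0.086) under the Luc hairpin and 0.11 (SE 0.15, adjusted p = 0.589) under the Stag2 hairpin. The set as a term gave -0.55 (adjusted p = 4.17e-05) for shStag2, -0.34 (adjusted p = 0.0045) for shRad21 and -0.10 (adjusted p = 0.731) for shSmc1a in HPC. Its EPO values were -0.22 (adjusted p = 0.0547) in Luc cells and 0.24 (adjusted p = 0.0414) in Stag2-hairpin cells. Without scaling beyond the total the EPO value under the Stag2 hairpin was -0.10. Without HPC shStag2 3 the shStag2 change was -0.79.

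Complex IV, cytochrome c oxidase, takes its 3 core subunits from this genome. mt-Co1 was counted at 9382, 9829 and 9829 scaled CPM in HPC Luc, 7280.5, 7689.8 and 9317 in HPC shStag2, 8473, 8549.6 and 8675 in HPC shRad21 and 8676 and 8959 in HPC shSmc1a. The Ery Luc libraries held 8652 and 8368 and the Ery shStag2 libraries 8026 and 7697. mt-Co1, the catalytic subunit (MT 5328 to 6872), was below HPC Luc in every other library. The log2 change was -0.26 (SE 0.0648, adjusted p = 0.0337) in HPC shStag2, -0.18 (SE 0.0648, adjusted p = 0.111) in HPC shRad21 and -0.13 (SE 0.0726, adjusted p = 0.384) in HPC shSmc1a. The shStag2 call was lost without further scaling, in a fit of only the libraries compared, and without HPC Luc 1, HPC Luc 2, HPC Luc 3, HPC shStag2 1 or HPC shStag2 2 (log2 change -0.28 to -0.15, highest adjusted p = 0.202). With EPO its log2 change was -0.19 (SE 0.0727, adjusted p = 0.0502) in Luc cells and -0.04 (SE 0.0725, adjusted p = 0.676) in Stag2-hairpin cells. Taking the set into the fit, the HPC values were -0.26 (adjusted p = 1.23e-04) with shStag2, -0.18 (adjusted p = 0.00463) with shRad21 and -0.22 (adjusted p = 0.0126) with shSmc1a. The same fit put the EPO change at -0.14 (adjusted p = 0.0186) under Luc and 0.01 (adjusted p = 0.942) under Stag2.

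mt-Co2 stood at 42.9, 27.4 and 45.6 scaled CPM in HPC Luc, 15.9, 18.9 and 41.3 in HPC shStag2, 20.7, 21.1 and 39.1 in HPC shRad21 and 41.3 and 50.1 in HPC shSmc1a. After EPO the values were 57.8 and 54.8 under the Luc and 53.2 and 49.8 under the Stag2 hairpin. mt-Co2, which takes electrons from cytochrome c and lies in the uncertain stretch (MT 7013 to 7696), had its lowest values in the HPC shStag2 and shRad21 libraries numbered 1 and 2. With EPO its log2 change was 0.54 (SE 0.30, adjusted p = 0.166) in Luc cells and 1.04 (SE 0.30, adjusted p = 0.0112) in Stag2-hairpin cells. The second call was lost without HPC shStag2 1, HPC shStag2 2 or Ery shStag2 1 (log2 change 0.79 to 0.99, highest adjusted p = 0.0649). Without the set, the hairpin changes in HPC were -0.63 (SE 0.28, adjusted p = 0.321) for shStag2, -0.54 (SE 0.28, adjusted p = 0.291) for shRad21 and 0.24 (SE 0.30, adjusted p = 0.783) for shSmc1a. With the library set as a term the hairpin values were -0.70 (adjusted p = 8.01e-04) for shStag2, -0.57 (adjusted p = 0.00324) for shRad21 and -0.30 (adjusted p = 0.373) for shSmc1a. For EPO that fit gave 0.84 (adjusted p = 2.68e-05) with the Luc and 1.40 (adjusted p = 1.75e-08) with the Stag2 hairpin.

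mt-Co3 stood at 64.7, 44.2 and 75.6 scaled CPM in HPC Luc, 35.2, 35.1 and 78.9 in HPC shStag2, 42.8, 37.5 and 68.5 in HPC shRad21 and 55.2 and 70.9 in HPC shSmc1a. Ery Luc had 126 and 127 and Ery shStag2 119 and 109. The lowest Ery library for mt-Co3, a subunit that stabilises the enzyme (MT 8607 to 9390), was above the highest HPC library. It rose 2.05-fold with EPO in Luc cells, 1.04 (SE 0.28, adjusted p = 0.0071) on the log2 scale, and 2.31-fold in Stag2-hairpin cells, 1.21 (SE 0.28, adjusted p = 0.00251). Both calls held under every alternative run here. mt-Co3 is among the uncertain genes. Without the set, the hairpin changes in HPC were -0.32 (SE 0.26, adjusted p = 0.684) for shStag2, -0.32 (SE 0.26, adjusted p = 0.539) for shRad21 and 0.03 (SE 0.29, adjusted p = 0.977) for shSmc1a. The set as a term gave -0.38 (adjusted p = 0.035) for shStag2, -0.34 (adjusted p = 0.0413) for shRad21 and -0.48 (adjusted p = 0.0413) for shSmc1a in HPC. Its EPO values were 1.33 (adjusted p = 1.80e-09) in Luc cells and 1.56 (adjusted p = 1.59e-10) in Stag2-hairpin cells.

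Complex V, ATP synthase, takes 2 subunits of its membrane part, and both genes lie in the uncertain stretch (mt-Atp8 at MT 7766 to 7969, mt-Atp6 at MT 7927 to 8607). mt-Atp6 was counted at 29.3, 22.6 and 39.6 scaled CPM in HPC Luc, 12.2, 15.8 and 37.7 in HPC shStag2, 17.2, 16.3 and 35.2 in HPC shRad21 and 43.7 and 50.0 in HPC shSmc1a. Among the Ery libraries, those with the Luc hairpin held 56.7 and 51.3 and those with the Stag2 hairpin 50.7 and 46.1. HPC shStag2 and shRad21 libraries numbered 1 and 2 were lowest. With EPO the log2 change of mt-Atp6 was 0.82 (SE 0.34, adjusted p = 0.0639) in Luc cells and 1.17 (SE 0.34, adjusted p = 0.0119) in Stag2-hairpin cells, and the latter did not pass with DESeq2 (adjusted p = 0.0506) or without HPC shStag2 1, HPC shStag2 2 or Ery shStag2 1 (highest adjusted p = 0.0704), with log2 change 0.87 to 1.16. Without HPC shStag2 3 it was 1.78. Without the set, the hairpin changes in HPC were -0.51 (SE 0.32, adjusted p = 0.557) for shStag2, -0.44 (SE 0.32, adjusted p = 0.483) for shRad21 and 0.61 (SE 0.34, adjusted p = 0.405) for shSmc1a. Taking the set into the fit, the HPC values were -0.57 (adjusted p = 0.00201) with shStag2, -0.46 (adjusted p = 0.00724) with shRad21 and -0.02 (adjusted p = 0.967) with shSmc1a. The same fit put the EPO change at 1.21 (adjusted p = 1.49e-08) under Luc and 1.63 (adjusted p = 1.61e-10) under Stag2.

 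mt-Atp8 stood at 7.58, 3.69 and 8.69 scaled CPM in HPC Luc, 1.14, 2.33 and 6.93 in HPC shStag2, 2.35, 2.17 and 6.0 in HPC shRad21 and 9.58 and 8.86 in HPC shSmc1a. With EPO it stood at 4.81 and 4.21 with the Luc hairpin and 3.93 and 3.66 with the Stag2 hairpin. With 35 to 260 reads a library, mt-Atp8 had wide errors, and the EPO change was -0.57 (SE 0.49, adjusted p = 0.375) in Luc cells and 0.21 (SE 0.52, adjusted p = 0.784) in Stag2-hairpin cells. Without the set, the hairpin changes in HPC were -1.03 (SE 0.44, adjusted p = 0.302) for shStag2, -0.99 (SE 0.45, adjusted p = 0.206) for shRad21 and 0.46 (SE 0.45, adjusted p = 0.695) for shSmc1a. With the library set as a term the hairpin values were -1.10 (adjusted p = 0.00297) for shStag2, -1.01 (adjusted p = 0.00348) for shRad21 and -0.31 (adjusted p = 0.646) for shSmc1a. For EPO that fit gave -0.06 (adjusted p = 0.87) with the Luc and 0.78 (adjusted p = 0.0296) with the Stag2 hairpin.

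mt-Tp, the tRNA for proline (MT 15356 to 15422), was the only tRNA with reads, 546 to 1169 a library. mt-Tp stood at 24.1, 25.8 and 23.9 scaled CPM in HPC Luc, 24.3, 25.5 and 23.9 in HPC shStag2, 25.9, 27.6 and 25.4 in HPC shRad21 and 24.5 and 23.8 in HPC shSmc1a. The Ery Luc libraries held 39.6 and 40.9 and the Ery shStag2 libraries 37.9 and 36.9. All Ery libraries were above all 11 HPC libraries. With EPO it rose 1.64-fold in Luc cells, 0.71 (SE 0.0723, adjusted p = 7.26e-07) on the log2 scale, and 1.52-fold in Stag2-hairpin cells, 0.60 (SE 0.0721, adjusted p = 4.93e-06). Both calls held under every alternative run here. In HPC the change was 0.00 (SE 0.0664, adjusted p = 0.997) for shStag2, 0.10 (SE 0.0665, adjusted p = 0.439) for shRad21 and -0.03 (SE 0.075, adjusted p = 0.913) for shSmc1a. The set as a term gave 0.00 (adjusted p = 0.999) for shStag2, 0.10 (adjusted p = 0.339) for shRad21 and 0.02 (adjusted p = 0.962) for shSmc1a in HPC. Its EPO values were 0.69 (adjusted p = 6.40e-09) in Luc cells and 0.58 (adjusted p = 8.75e-08) in Stag2-hairpin cells. Without scaling beyond the total the EPO change with the Stag2 hairpin was 0.37. As mature tRNAs are short, 59 to 75 bp here, the libraries cannot be read as a measure of tRNA levels.

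Ratios within the mitochondrial reads do not depend on scaling to the rest of the transcriptome. For each library, 9.20, 9.34 and 10.7 reads of mt-Rnr2 were counted per read of mt-Rnr1 in HPC Luc, 11.2, 9.95 and 11.1 in HPC shStag2, 10.9, 10.5 and 10.8 in HPC shRad21, and 11.9 and 10.2 in HPC shSmc1a. For Ery Luc the ratio was 20.2 and 20.4, and for Ery shStag2 18.1 and 19.0. Ery libraries were clear of all HPC libraries. Stratified by hairpin, the log2 ratio of mt-Rnr1 to mt-Rnr2 was lower in Ery by 0.93 (-4.28 against -3.35).

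For each 100 reads of the 12 other mRNAs, mt-Nd6 had 2.49, 2.36 and 2.8 reads in HPC Luc, 2.20, 2.21 and 2.73 in HPC shStag2, 3.34, 3.23 and 2.74 in HPC shRad21 and 2.18 and 2.07 in HPC shSmc1a. Ery Luc had 1.63 and 1.53 such reads, and Ery shStag2 1.70 and 1.53. mt-Nd6 thus had fewer such reads in every Ery library than in any HPC library, and HPC shRad21 1 and 2 had the most of all. Strandedness of the counting is not given, so these reads may include reads of the other strand. The log2 difference between stages was -0.62.

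The log2 ratio of mt-Nd5 and mt-Cytb, far along the heavy-strand transcript, to mt-Nd1 and mt-Nd2, near its start, was -0.47, -0.49 and -0.57 in HPC Luc, -0.56, -0.61 and -0.37 in HPC shStag2, -0.37, -0.45 and -0.57 in HPC shRad21 and -0.76 and -0.72 in HPC shSmc1a. Ery Luc stood at -0.81 and -0.80, and Ery shStag2 at -0.78 and -0.83. The shSmc1a libraries lay between the other HPC libraries and the Ery libraries. The Ery libraries were lower than HPC by 0.29 when stratified by hairpin.

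Of 30 tests of shares and ratios, 10 measures in 3 contrasts, 0 passed after Benjamini-Hochberg adjustment (exact permutation tests over libraries). For the stage contrast 6 measures reached an exact p = 0.01, the smallest that its 100 arrangements allow, with an adjusted p of 0.05, at the threshold and not under it. They were the 3 ratios above, the rRNA share of mitochondrial reads (95.3% in Ery and 94.5% in HPC), the complex V share of mRNA reads (0.324 and 0.161%) and the tRNA share (0.0106 and 0.0074%). The complex V share rests on uncertain genes, and the tRNA share is mt-Tp alone. In these 6, all Ery libraries lay on 1 side of the HPC libraries with the same hairpin. Without the libraries numbered 3 the differences kept their direction, from -0.97 for mt-Rnr1 to mt-Rnr2 and -0.53 for mt-Nd6 to -0.27 for the last ratio, and the smallest p was then 0.0556.

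**Figure D4:**
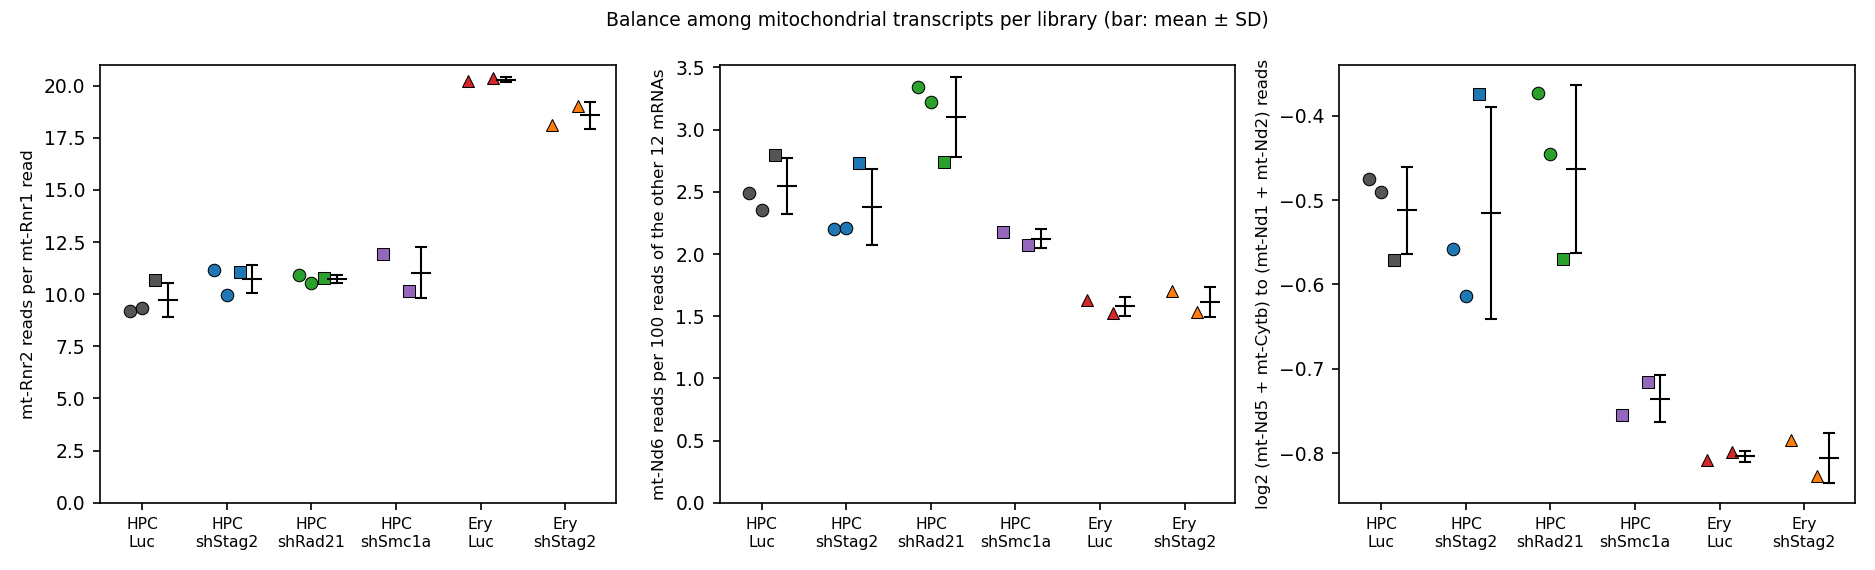
Reads of mt-Rnr2 per read of mt-Rnr1, reads of mt-Nd6 per 100 reads of the other 12 mRNAs, and log2 ratio of mt-Nd5 plus mt-Cytb to mt-Nd1 plus mt-Nd2 reads, 1 point per library with mean ± SD; squares, circles and triangles as in the plot of shares. Ery libraries lie at 18.1 to 20.4 in the first panel, where HPC libraries lie at 9.20 to 11.9, and at 1.53 to 1.70 in the second, where HPC libraries lie at 2.07 to 3.34.

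Among progenitors, the log2 ratio of mt-Rnr1 to mt-Rnr2 was -3.43 in the 8 knockdown libraries and -3.28 in HPC Luc (exact permutation test, p = 0.0303, adjusted p = 0.13), and stratified by library set the difference was -0.12 (exact p = 0.107, adjusted p = 0.35). Complex I held 38.9, 41.7 and 41.7% of mRNA reads in HPC shStag2 and 42.2, 42.6 and 45.1% in HPC Luc, so the groups did not overlap (exact p = 0.1, the smallest possible). Complex IV held 53.0, 49.3 and 47.9% against 47.4, 47.3 and 44.4%, again without overlap (exact p = 0.1). In both library sets the shStag2 libraries lay on the same side of HPC Luc in each of these shares. Both are parts of the same mRNA reads and so are not independent. The complex IV share is nearly all mt-Co1, which alone held 52.7, 49.0 and 47.3% in HPC shStag2. A higher share is not a higher level, as mt-Co1 was itself called lower in HPC shStag2. In HPC shSmc1a complex I held 45.4 and 45.2% and complex IV 43.1 and 43.3%.

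After EPO, no member passed the test for the Stag2 hairpin. In Ery shStag2 against Ery Luc 0 of 16 members passed edgeR's test, where 7.68% of all identifiers did; 0 had an unadjusted p under 0.05 and DESeq2 called 0. The median log2 change of the 16 was -0.10, from -0.25 for mt-Atp8 to 0.24 for mt-Nd4l. For mt-Nd1, called in HPC, the log2 change was -0.15 (SE 0.11, adjusted p = 0.511) with a 95% interval from -0.36 to 0.07, and for mt-Cytb -0.09 (SE 0.16, adjusted p = 0.832), from -0.40 to 0.23. In 9 members both Ery shStag2 libraries were below both Ery Luc libraries and in 1, mt-Rnr1, above. How many of all identifiers were separated in this way was not counted. A fit of only the 4 Ery libraries, which takes the spread from 2 against 2, called 7 members lower and mt-Rnr1 higher. These had log2 changes of -0.14 to 0.08, and the share of all identifiers called in that fit is not given here.

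The difference between the Stag2 effects of the 2 stages was tested directly. It passed for 0 of 16 members by edgeR, where 1.19% of all identifiers passed; 4 had an unadjusted p under 0.05, mt-Rnr1, mt-Nd1, mt-Nd4 and mt-Cytb, and DESeq2 called 0. The difference was 0.34 (SE 0.14, adjusted p = 0.352) for mt-Nd1, 0.44 (SE 0.21, adjusted p = 0.431) for mt-Cytb and 0.46 (SE 0.18, adjusted p = 0.307) for mt-Rnr1, so that the Stag2 values were higher relative to Luc in Ery than in HPC. With only the HPC libraries numbered 1 and 2, a choice made after seeing the data, 15 of 16 members passed, all in that direction. Without HPC shStag2 3 alone 5 passed. The shares of all identifiers called in these other fits are not given here, so their counts cannot be read as particular to the members.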

How the data were processed

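RNA sequencing of 15 HPC-7 libraries was used. The authors deposited a table of unnormalised counts for each transcript identifier. Per the submitters' processing notes, STAR 2.4.0, HTSeq and the build mm10 were used. Not given in the sources used here: counting mode, strandedness, annotation release and handling of multiply aligned reads. Reads outside features (9.19 to 18.0% of reads) and ambiguous reads (24.2 to 26.9%) were left out of library sizes.

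Members were the 37 mitochondrial identifiers. Their symbols follow the order of the RefSeq mitochondrial genes (GRCm38), and 6 of 6 identifiers with a name matched the gene table. All 15 libraries entered 1 fit in edgeR 4.0.16 (R 4.3.3) with trimmed-mean scaling, filterByExpr, the quasi-likelihood test and Benjamini-Hochberg adjustment over 18065 identifiers, with a threshold of 0.05. DESeq2 1.42.0 was an alternative, and scripts were tested on simulated data. Shares and ratios were tested by exact permutation over libraries. By the rule for named genes, all mRNAs and rRNAs were named, and tRNAs where they passed a test. Members and lists were chosen with earlier results of these data known. Planned lists of nuclear mitochondrial genes and cell type markers were not used, because no table used here pairs the identifiers with symbols. The series' other assays were not used here.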

Additional observations from a re-analysis of the deposited data

How the results depend on the processing

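Of 22 member changes that passed, 9 passed under every alternative run, and of 90 that did not, 71 passed under some alternative. The number of members called in HPC shStag2 against HPC Luc, 4 of 16, was 2 without scaling beyond the total, 15 without a filter on low counts, 14 with the library set as a term, 1 in a fit of only the libraries compared, 15 with HPC libraries numbered 1 and 2 only, and 1 to 15 leaving out 1 library. For HPC shRad21 the 0 calls became 13 without the filter, 12 with the set, 1 in the fit of libraries compared, 13 with numbers 1 and 2 only, and 0 to 3 leaving out 1 library. For HPC shSmc1a the 0 became 1 without scaling, 7 without the filter, 6 with the set, 1 in the fit of libraries compared, and 0 to 1 leaving out 1 library. The 9 calls of Ery Luc against HPC Luc became 15 without the filter, 14 with numbers 1 and 2 only, and 5 to 10 leaving out 1 library, and the 9 of Ery shStag2 against HPC shStag2 became 5 to 9. In Ery shStag2 against Ery Luc the 0 became 8 in the fit of libraries compared and 1 with numbers 1 and 2 only. For the difference of the Stag2 effects the 0 became 9 without the filter, 3 with the set, 15 with numbers 1 and 2 only, and 0 to 5 leaving out 1 library. The cause was not tested, and the shares of all identifiers called under these alternatives are not given here. The alternative of numbers 1 and 2 was chosen after seeing the data for comparisons that include Ery libraries.

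The replicate numbers were not taken as pairs, since in the comparisons with HPC Luc the correlation of same-numbered deviations was 0.0187 (shStag2) and 0.0695 (shRad21) for number 1, under the minimum of 0.1. For numbers 2 and 3 it was over that minimum, at 0.238 and 0.326 (shStag2) and 0.243 and 0.333 (shRad21). HPC shStag2 and shRad21, which are not compared here, gave 0.233, 0.274 and 0.529. As a hint from the data and not from the design, libraries correlated best with their own number in 2 of 3 cases for HPC Luc with shStag2. They did so in 3 of 3 cases for HPC Luc with shRad21 and for shStag2 with shRad21. With the replicate block the calls were 14 for HPC shStag2, 12 for HPC shRad21, 5 for HPC shSmc1a, 13 for Ery Luc, 12 for Ery shStag2 against HPC shStag2, 0 for Ery shStag2 against Ery Luc and 3 for the difference.

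Of 1648 member values under alternatives, 58, in 22 results, had the opposite sign, and 0 of these results had passed. With the library set as a term 7 members of HPC shSmc1a changed sign, of which mt-Co3 passed the test (-0.48). The sign also changed for the share difference in HPC shSmc1a (0.610 points with the replicate block, -0.885 to 0.610 leaving out 1 library) and for that in Ery shStag2 against HPC shStag2 (2.04 with all reads as denominator, 0.341 without the most counted other identifier, 2.52 with the block, -1.69 to 2.52 leaving out 1 library). Without scaling beyond the total the median of all identifiers shifted by 0.12 (HPC shStag2), -0.12 (Ery Luc) and -0.23 (Ery shStag2 against HPC shStag2) on the log2 scale. Counts of 35 to 260 for mt-Atp8 and 35 to 128 for mt-Nd4l limit those genes, and groups of 2 or 3 libraries limit every share.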
